A study of Mus musculus with 39 samples.

Results

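The genes described here are 8 genes through which the liver makes, exports, takes up and senses glucose, namely *Pcx*, *Pck1*, *Fbp1*, *G6pc*, *Slc37a4*, *Slc2a2*, *Pklr* and *Ppargc1a*. They were picked by symbol for their known roles, without a rule on measured values, and are 8 of the 45706 genes listed in every count file. They were read out by RNA-Seq of poly(A) RNA in 39 libraries of male C57BL/6 mice on chow, in a study that asked what the transcription factor E47 contributes to the response to glucocorticoids (GCs), adrenal steroids whose receptor, GR, binds DNA. The 12 groups pair mutants with controls in 6 experiments. E47KO mice (E47-/-) and wild-type (WT) mice (E47+/+) drank the synthetic GC dexamethasone (Dex) at 10 µg/ml for 3 weeks and were killed after a glucose tolerance test, which gave liver (3 E47KO and 2 WT), white adipose tissue (WAT, 2 and 2) and skeletal muscle (3 and 2). Livers of mice given corticosterone (Cort), the natural hormone of the mouse, at 100 µg/ml for 3 weeks came from 4 E47KO and 4 WT mice, also killed after a glucose tolerance test. Untreated livers came from 6 E47KO and 5 WT mice. Acute livers were taken 1 h after an i.p. injection of Dex at 1 mg/kg, from 3 AlbCreE47KO mice (Albcre/+;E47fl/fl) and 3 controls without Cre, of which 2 were Alb+/+;E47fl/fl and 1 was Alb+/+;E47fl/+.

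These models have limits that bear on the values below. E47KO mice lack E47 in every tissue, whereas the albumin promoter drives Cre in hepatocytes only. E47 is 1 of the products of *Tcf3*, and counts per gene do not separate it from the sister form E12. *Tcf3* itself differed between genotypes by -0.15 to 0.23 on the log2 scale, short of the threshold in all 6 experiments, and gave no check of the labels. Levels are given as CPM (counts scaled to library size), with TMM scaling within each experiment, so that levels set side by side across experiments or tissues are not on 1 common scale and the tests there come from joint fits. Libraries held 15.5 M to 54.6 M counts in genes. In liver the summed level of 13 hepatocyte markers was 103500 to 176000 CPM, in WAT 10 adipocyte markers summed to 52630 to 59230 CPM and in muscle 10 muscle markers to 173400 to 246500 CPM, so each tissue carried its own markers. Muscle markers also reached 370 CPM in some livers. The hepatocyte list summed to 4724 to 9522 CPM in WAT, of which *Alb*, the albumin gene, made up 23.8 to 86.9 CPM. In bulk tissue, fewer cells of a type and less RNA per cell cannot be told apart.

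As background, gluconeogenesis runs from pyruvate to free glucose. Pyruvate carboxylase (*Pcx*) makes oxaloacetate in mitochondria, the cytosolic PEP carboxykinase (*Pck1*) turns it into phosphoenolpyruvate, fructose-bisphosphatase (*Fbp1*) acts further up, and glucose-6-phosphatase (*G6pc*), fed by the transporter *Slc37a4* in the endoplasmic reticulum, releases glucose. *Slc2a2* encodes GLUT2, the glucose transporter of the hepatocyte membrane, and *Pklr* the liver pyruvate kinase that runs glycolysis in the opposite direction. The coactivator *Ppargc1a* (PGC-1α) drives gluconeogenic genes in fasting, when GCs and glucagon rise and insulin falls.

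In untreated WT liver the levels of these genes spread widely. Per kilobase of exon, the mean was highest for *Pck1* at 981 CPM per kb, then *Fbp1* at 615, *G6pc* at 148 and *Pcx* at 116 CPM per kb. *Pklr*, *Slc2a2* and *Slc37a4* lay together at 83.0, 82.3 and 81.2 CPM per kb, whereas *Ppargc1a* measured 1.41 CPM per kb. Counts were taken without regard to strand, and 711 exon bases of *Pklr* are shared with *Hcn3* on the other strand, so reads of these genes cannot be told apart there.

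On mm10 the genes lie on 7 chromosomes, and each count covers all annotated exons, untranslated ones included. *Pcx* (ENSMUSG00000024892) spans chr19:4510472-4621752, *Pck1* (ENSMUSG00000027513) chr2:173153048-173159273 and *Fbp1* (ENSMUSG00000069805) chr13:62864753-62888282. *G6pc* (ENSMUSG00000078650) spans chr11:101367561-101377903, *Slc37a4* (ENSMUSG00000032114) chr9:44396852-44402968 and *Ppargc1a* (ENSMUSG00000029167) chr5:51454250-51567726. *Slc2a2* (ENSMUSG00000027690), at chr3:28697903-28731359, and *Pklr* (ENSMUSG00000041237), at chr3:89136142-89146784, share a chromosome.

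E47 binds the E-box CANNTG, so promoter stretches of 3 of the genes whose levels carry the results below are shown, each ending before an annotated exon. They were taken from RefSeq windows on GRCm38.p6 and run 5′ to 3′ on the strand of the gene. *Pck1* is shown as the best known GC target of the group, *Ppargc1a* as the gene that rose most after 3 weeks of Dex, and *Pklr* as a glycolytic gene that fell. The *Pck1* stretch is chr2:173152823-173153047 (plus strand), *Ppargc1a* chr5:51567727-51567975 (minus strand) and *Pklr* chr3:89136373-89136571 (plus strand). The *Pklr* stretch lies before its second RefSeq start site, the one used in liver, and so inside the annotated gene. Capitals mark every E-box, the cyclic AMP response core TGACG on either strand, and in *Pklr* the stretch from CACG to CGTG with 9 bases between them, the spacing of a carbohydrate response element.
Pck1: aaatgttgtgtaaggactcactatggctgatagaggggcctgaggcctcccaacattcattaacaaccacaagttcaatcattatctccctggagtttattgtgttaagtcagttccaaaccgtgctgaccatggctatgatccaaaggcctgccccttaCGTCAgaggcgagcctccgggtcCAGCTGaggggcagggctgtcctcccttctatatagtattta
Ppargc1a: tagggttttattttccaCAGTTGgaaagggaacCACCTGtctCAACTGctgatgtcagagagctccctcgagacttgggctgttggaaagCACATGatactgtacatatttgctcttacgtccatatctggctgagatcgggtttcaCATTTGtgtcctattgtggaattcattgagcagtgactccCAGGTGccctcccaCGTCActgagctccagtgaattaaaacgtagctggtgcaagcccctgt
Pklr: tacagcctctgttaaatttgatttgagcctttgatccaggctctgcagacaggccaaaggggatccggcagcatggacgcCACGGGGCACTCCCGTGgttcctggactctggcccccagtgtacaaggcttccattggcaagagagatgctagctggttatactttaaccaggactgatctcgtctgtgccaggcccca

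RefSeq gave 12 windows for the 8 genes, each spanning an annotated start site. At least 1 E-box stood in 8 of the 12 windows, against 72.3% of all 32851 promoter windows. The printed *Ppargc1a* stretch holds 6 E-boxes, that of *Pck1* holds 1 and that of *Pklr* holds 0. TGACG (either strand) was found in 4 of the 12 windows, against 20.8% of all windows, and the GR-type letters AGAACA (either strand) in 0 of the 12, against 19.0%. The 4 windows with TGACG were those of *Pck1* and *Ppargc1a* and windows 1 and 2 of *Slc37a4*, which overlap each other. CACG and CGTG at that spacing were found in 0.28% of all windows and, among the 12, in that of *Pklr* alone. Such matches describe letters in a short window and say nothing about binding.

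The main comparison asked whether loss of E47 changed these genes. In none of the 4 liver experiments did any of the 8 genes pass an adjusted p of 0.05 by edgeR (quasi-likelihood F test, p-values adjusted after Benjamini and Hochberg), nor in DESeq2. At an unadjusted p under 0.05 there was 1 gene (*Pklr*) after 1 h of Dex, 1 (*Ppargc1a*) in untreated liver and 0 after 3 weeks of Dex or Cort, against 3.7%, 3.63%, 3.08% and 9.84% of all genes. The background was low as well, with 0.00752% of 13300 genes called after 3 weeks of Dex, 0.0274% of 14588 after Cort, 0% of 12601 after 1 h of Dex and 0.0288% of 13904 without treatment. The median log2 fold change (mutant against control) of the 8 genes was -0.14 after Dex, -0.05 after Cort, 0.00 after 1 h of Dex and -0.02 in untreated liver, and that of all genes tested lay between -0.01 and 0.00.

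*Pck1*, the gene most often used to read gluconeogenesis, measured 4554, 4241 and 5261 CPM in the Dex-treated E47KO livers and 5001 and 5982 CPM in WT. Its log2 fold change was -0.24 with a 95% interval of -0.74 to 0.27. The genotypes overlapped, and the interval spans a fall to well below WT as well as a small rise. After Cort the interval was wider, -0.99 to 0.87 around -0.06. In AlbCreE47KO livers 1 h after Dex it was -0.18 to 0.53, and in untreated E47KO livers -0.29 to 0.51.

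*G6pc*, the last enzyme of the pathway, measured 94.8, 122.1 and 132.5 CPM in E47KO and 109.0 and 84.5 CPM in WT livers after Dex. The change was 0.26 (95% interval -0.19 to 0.72). In untreated E47KO livers *G6pc* ranged from 76.4 to 663 CPM around a median of 366 CPM, the widest relative spread of the 8 genes there, and the interval of its change was -0.85 to 1.06. Differences of either sign inside that interval were compatible with these values.

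*Fbp1*, *Pcx*, *Slc37a4* and *Slc2a2* differed by -0.32 to 0.46 on the log2 scale over the 4 liver experiments. *Pcx* had the narrowest interval of the 8 genes in Cort and in untreated liver, with intervals of -0.27 to 0.17 after Cort and -0.27 to 0.16 in untreated liver. *Fbp1* measured 461, 748 and 842 CPM in Dex-treated E47KO livers against 552 and 439 CPM in WT. The E47KO liver at 461 CPM lay between the WT livers, and those at 748 and 842 CPM lay above both.

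*Pklr* was lower on average in the mutants of all 4 liver experiments. In Dex-treated livers it measured 43.95, 43.4 and 65.9 CPM in E47KO and 57.0 and 97.6 CPM in WT, a change of -0.61 (SE 0.28). At 1 h after Dex it measured 114.3, 92.1 and 57.6 CPM in AlbCreE47KO livers against 108.3, 147.0 and 135.7 CPM in controls, a change of -0.57 (SE 0.23). The groups overlapped in each experiment. The other changes were -0.19 (SE 0.20) after Cort and -0.44 (SE 0.29) without treatment. Their size rested on single livers. Leaving out 1 library gave -0.95 to -0.15 after Dex (the latter without WT replicate 2), -0.36 to -0.049 after Cort (the latter without WT replicate 1), -0.80 to -0.35 after 1 h of Dex (the latter without AlbCreE47KO replicate 3) and -0.63 to -0.24 without treatment (the latter without WT replicate 3). The unadjusted edgeR p was 0.0353 in the 1 h experiment, where the adjusted p was 0.9998, and 0.0732 to 0.381 in the others. Unadjusted p-values under 0.05 were found for 3.7% of all genes in that experiment.

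*Ppargc1a* was 0.52 higher on the log2 scale (SE 0.19) in untreated E47KO livers, where it ranged from 8.62 to 20.8 CPM with a median of 12.5 CPM. The 5 WT livers measured 9.84, 7.90, 11.4, 8.50 and 8.84 CPM. Of the 6 E47KO livers 5 lay above all WT livers and 1 within their range. The unadjusted edgeR p was 0.0197 and the adjusted p 0.965, in an experiment where 3.63% of all genes had an unadjusted p under 0.05. Leaving out E47KO replicate 2 gave 0.34. In treated livers its change was -0.19 after Dex, -0.12 after Cort and 0.36 after 1 h of Dex. These were -0.017 without E47KO replicate 3, 0.044 without E47KO replicate 2 and 0.051 without AlbCreE47KO replicate 3.

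**Figure D1:**
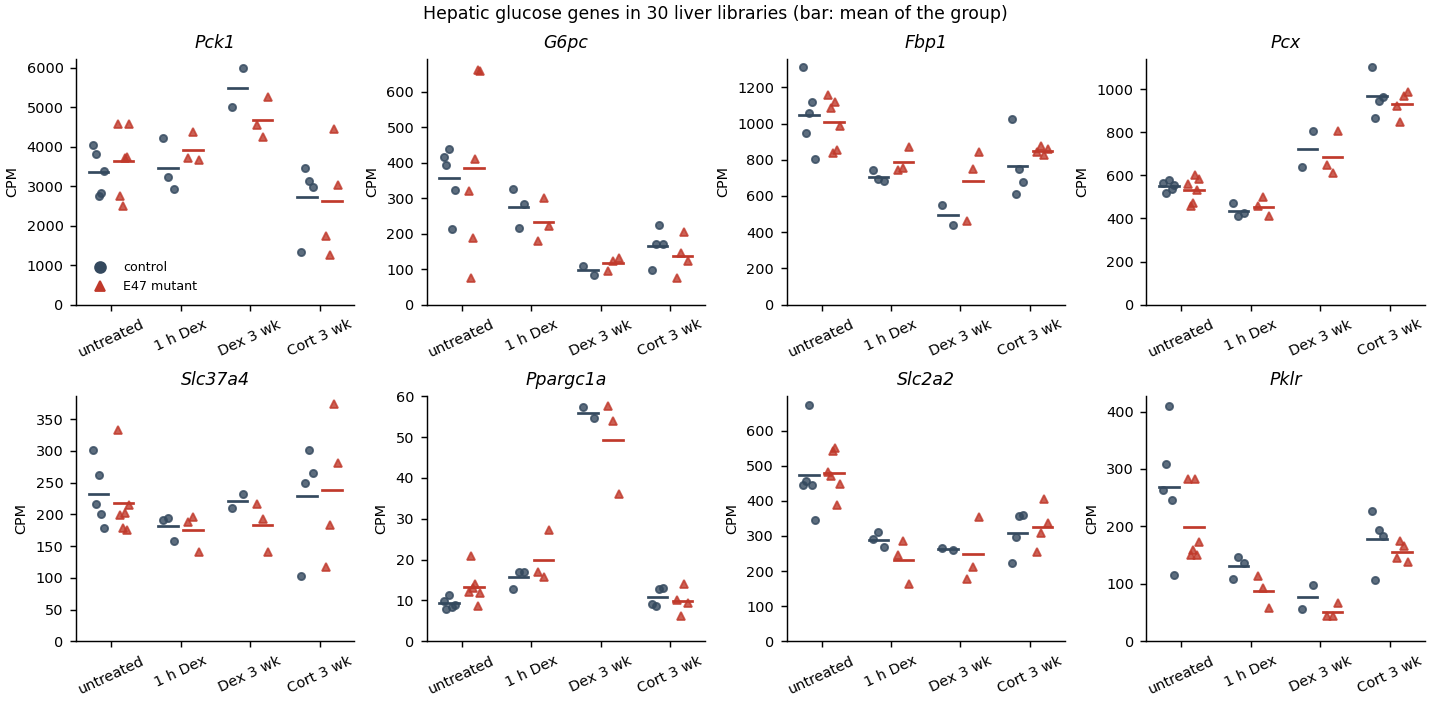
CPM of the 8 genes (vertical axes, starting at 0, 1 panel a gene) in 30 liver libraries by treatment, with controls as dark circles, E47KO or AlbCreE47KO livers as red triangles and bars at group means. Mutant and control livers overlap in every panel and treatment, while *Ppargc1a* after 3 weeks of Dex (36.1 to 57.6 CPM) stands apart from all other livers.

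**Figure D2:**
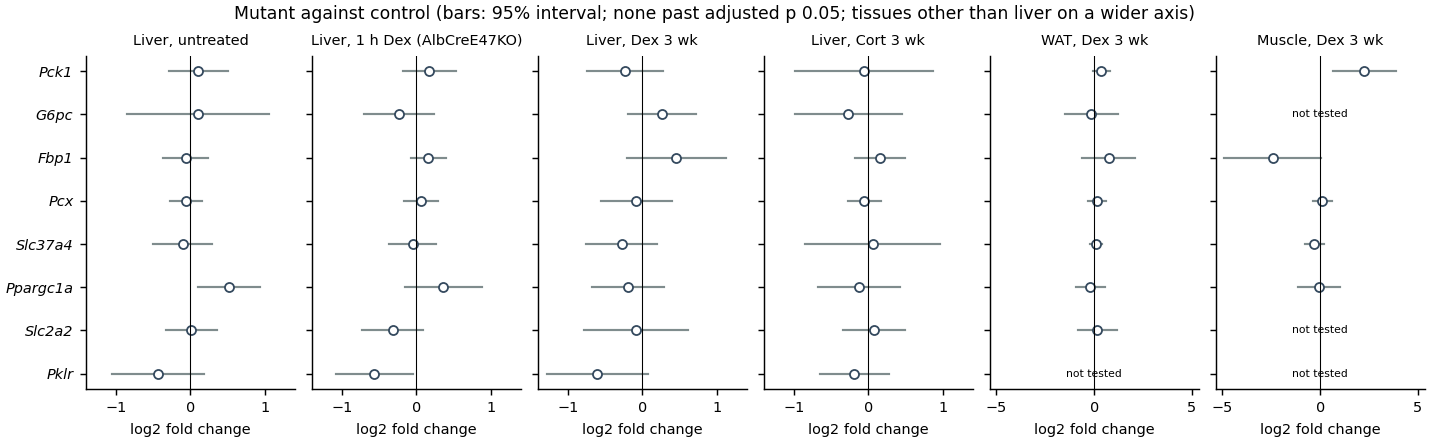
Log2 fold change of mutant against control (horizontal axes) with its 95% interval for the 8 genes in 6 experiments, liver on 1 scale and WAT and muscle on a wider one. All points are open because 0 genes passed an adjusted p of 0.05; the interval lies above 0 for *Ppargc1a* in untreated liver and for *Pck1* in muscle, and below 0 for *Pklr* after 1 h of Dex.

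Whether the genotype effect itself differed between treatments was tested over all 30 livers with a mean per group. None of the 8 genes passed for Cort against untreated (background 0.00616% of 16227 genes), Dex against untreated (0.00616%) or Dex against Cort (0.00616%), and none had an unadjusted p under 0.05, against 6.89%, 4.14% and 2.95% of all genes. The largest differences were those of *Ppargc1a*, whose genotype effect was 0.71 lower under Dex than without treatment (difference -0.71, 95% interval -1.45 to 0.03) and -0.62 (-1.26 to 0.02) under Cort. For *Fbp1* the Dex effect minus the untreated effect was 0.53 (-0.02 to 1.07).

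The Cort livers fell into 2 levels of *Pck1* and *Slc37a4* that crossed the genotypes. Animal numbers given with the libraries place the mice in a lower range (2 E47KO and 1 WT) and an upper range (2 and 3). *Pck1* measured 1744 and 1270 CPM in the E47KO livers and 1346 CPM in the WT liver of the lower range, against 4439 and 3023 CPM in E47KO and 3460, 3140 and 2968 CPM in WT livers of the upper range. *Slc37a4* measured 116.5, 183.8 and 102.5 CPM in the lower range and 249 to 374 CPM in the upper one. The ranges did not overlap for either gene. For how many of all genes this holds was not counted.

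*G6pc* was 75.2 to 144.9 CPM in the lower and 123.0 to 225 CPM in the upper range, which overlapped, and *Pcx* stayed at 848 to 1105 CPM in all 8 livers. The 10 muscle markers moved with the ranges. Their sum was 0.939 to 1.19 CPM in the lower range, where 3 or 4 of the 10 had counts, and 171 to 236 CPM in the upper one, where 9 or 10 had counts. Their part in the levels of these genes was not tested. With the range as a covariate, the change of *Pck1* between genotypes turned from -0.06 to 0.21 (SE 0.15, edgeR adjusted p 0.537).

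**Figure D3:**
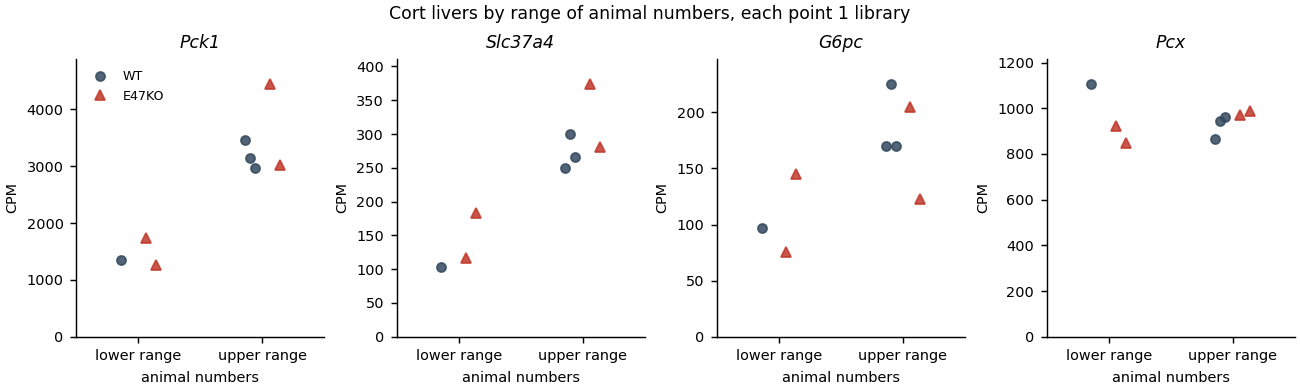
CPM of *Pck1*, *Slc37a4*, *G6pc* and *Pcx* (vertical axes, starting at 0) in the 8 Cort livers, split by range of animal numbers, with WT as dark circles and E47KO as red triangles. For *Pck1* the 3 livers of the lower range lie at 1270 to 1744 CPM and the 5 of the upper range at 2968 to 4439 CPM, whatever the genotype.

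Larger differences stood between treatments. Treated livers differed from untreated ones also in experiment and library preparation, after Cort and 3 weeks of Dex in the preceding glucose tolerance test, for which mice fast overnight, and after 1 h of Dex in the control genotype. Hormone and these conditions cannot be told apart. The non-overlap of levels between treatments is given as a description, since they were scaled by experiment. The share of all genes that did not overlap between treatments was not counted. In the fit over 30 livers, 31.9% of 16227 genes differed between Dex and untreated WT livers and 37.8% in E47KO. Of the 8 genes 2 were higher and 4 lower in WT, where 15.6% of all genes were higher and 16.3% lower, and 2 higher and 4 lower in E47KO (19.4% and 18.4%). Against Cort, 33.2% of genes differed in WT and 38.9% in E47KO, and of the 8 genes 1 was higher and 3 lower in WT (17% and 16.1% of all genes) and 1 higher and 2 lower in E47KO (21% and 18%). After 1 h of Dex in controls, 20.4% of genes differed, and of the 8 genes 1 was higher and 2 lower (10% and 10.4% of all genes). The median change of the 8 genes was -0.46 after Dex and -0.47 after Cort in WT, against -0.04 and 0.01 over all genes. Comparisons with untreated livers share those livers.

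*Ppargc1a* showed the largest change. It measured 57.3 and 54.7 CPM in Dex-treated WT livers and 57.6, 53.9 and 36.1 CPM in Dex-treated E47KO livers, against 7.90 to 11.4 CPM in untreated WT and 8.62 to 20.8 CPM in untreated E47KO livers. The treated and untreated livers did not overlap in either genotype. The log2 rise was 2.59 (SE 0.26, edgeR adjusted p 4.8e-08) in WT and 1.88 (SE 0.22, edgeR adjusted p 4.1e-07) in E47KO.

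At 1 h after Dex, *Ppargc1a* measured 12.8, 17.1 and 17.0 CPM in controls, a rise of 0.83 (SE 0.24, edgeR adjusted p 0.0171). After Cort it measured 8.54 to 13.0 CPM in WT, 0.12 above untreated WT (SE 0.22), and 6.30 to 14.04 CPM in E47KO, -0.50 against untreated E47KO (SE 0.22, edgeR adjusted p 0.0701). The latter passed without Cort-treated E47KO replicate 3 (adjusted p 0.0188) or untreated E47KO replicate 5 (0.0301). The 3-week Dex livers thus stood above those of every other treatment, including Cort for the same time.

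*G6pc* went the other way. It measured 109.0 and 84.5 CPM in Dex-treated WT livers and 97.2 to 225 CPM in Cort-treated ones, against 213 to 440.5 CPM in untreated WT. It fell by 1.89 on the log2 scale after Dex (SE 0.55, edgeR adjusted p 0.0103) and fell by 1.202 after Cort (SE 0.41, edgeR adjusted p 0.0247) in WT, and by 1.73 and 1.57 in E47KO (edgeR adjusted p 0.00385 and 0.00332). With 1 liver fewer the WT calls could be lost while the changes kept their size. Leaving out Dex-treated WT replicate 1 or 2 gave -2.07 and -1.73 (adjusted p 0.0568 and 0.117), and leaving out Cort-treated WT replicate 1 or 4 gave -1.01 and -1.22 (0.0861 and 0.0518). Without the 3 Cort livers of the lower range the changes after Cort were -1.01 in WT and -1.31 in E47KO (0.0839 and 0.0607).

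*Fbp1* fell as well, by 1.08 after Dex in WT (SE 0.21, edgeR adjusted p 0.000352) and by 0.56 in E47KO (SE 0.17, edgeR adjusted p 0.0136). The Dex-treated WT livers, at 552 and 439 CPM, lay below all 5 untreated WT livers at 802 to 1312 CPM. In E47KO the groups overlapped at 842 CPM, and without Dex-treated E47KO replicate 1 the change was -0.33 (adjusted p 0.167). After Cort *Fbp1* fell by 0.55 in WT (SE 0.16, edgeR adjusted p 0.0111), which was -0.46 with an adjusted p of 0.0508 without replicate 2, and its difference was -0.32 in E47KO (edgeR adjusted p 0.112). At 1 h after Dex it was -0.49 (edgeR adjusted p 0.052), which passed in DESeq2 (0.0312), with RLE scaling (0.0491), without the 3 lower-range Cort livers (0.0456) and on leaving out 1 of 7 single livers (0.0238 to 0.0497).

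*Pcx*, the entry enzyme, rose after both 3-week treatments. After Cort it measured 866 to 1105 CPM in WT and 848 to 989 CPM in E47KO, above all untreated livers, which lay between 456 and 600 CPM. The rise was 0.72 in WT (SE 0.11, edgeR adjusted p 2.1e-05) and 0.73 in E47KO (SE 0.10, edgeR adjusted p 5.8e-06). After Dex it was 0.39 and 0.37 (edgeR adjusted p 0.0242 and 0.0114). The Dex calls were lost without the filter on low counts (adjusted p 0.0966 and 0.0609), and rested on WT replicate 2 (0.19 and adjusted p 0.471 without it) and E47KO replicate 3 (0.24 and 0.143 without it).

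*Pck1* and *Slc37a4* did not pass in any of the 5 treatment contrasts. *Pck1* measured 5001 and 5982 CPM in Dex-treated WT livers, above the 5 untreated WT livers at 2750 to 4055 CPM, a difference of 0.71 (95% interval 0.02 to 1.39, edgeR adjusted p 0.106). It passed once the 3 Cort livers of the lower range were left out of the fit (0.70, adjusted p 0.0164). After Cort *Pck1* differed by -0.40 in WT and -0.55 in E47KO (edgeR adjusted p 0.282 and 0.109), and the E47KO difference was -0.93 without Cort replicate 3 (adjusted p 0.00974). *Slc37a4* stayed within -0.28 and 0.06 in all 5 contrasts.

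The transporter and the glycolytic enzyme fell. *Slc2a2* measured 265 and 260 CPM in Dex-treated WT livers, 222 to 360 CPM after Cort and 268 to 311 CPM 1 h after Dex, against 347 to 674 CPM in untreated WT livers. Its falls were 0.85 after Dex and 0.71 after Cort in WT, 0.95 and 0.63 in E47KO, and 0.63 in the 1 h controls (edgeR adjusted p 0.0143, 0.00879, 0.00137, 0.0135 and 0.0455). The 1 h call was lost without any 1 of the 3 control livers, with changes of -0.68 to -0.58 and adjusted p-values of 0.0918 to 0.156, without untreated WT replicate 3 (-0.47, adjusted p 0.123) and, by a narrow margin, without any 1 of 10 other livers (0.05005 to 0.0631) or the filter on low counts (0.0565). The Dex call in WT was lost without either Dex-treated WT liver, at nearly the same change (-0.861 and -0.855, adjusted p 0.0873 and 0.104). In Cort-treated E47KO the call was lost without replicate 1 (-0.52, adjusted p 0.0602) and without the 3 livers of the lower range (change -0.44, adjusted p 0.176).

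After 3 weeks of Dex *Pklr* fell by 1.79 in WT (SE 0.39, edgeR adjusted p 0.000949) and fell by 1.96 in E47KO (SE 0.33, edgeR adjusted p 4.4e-05). Dex-treated WT livers measured 57.0 and 97.6 CPM, below all untreated WT livers at 115.2 to 409 CPM. In 1 h controls it fell by 0.96 (SE 0.32, edgeR adjusted p 0.0325), a call that was lost without any 1 of the 3 control livers (changes of -1.06 to -0.85, adjusted p 0.0681 to 0.124) and without untreated WT replicate 2 or 3 (-0.91 and -0.76, adjusted p 0.0633 and 0.0846). After Cort its change was -0.69 in WT and -0.43 in E47KO (edgeR adjusted p 0.0625 and 0.225), and the WT change passed without untreated WT replicate 5 (0.0112) and in DESeq2 (0.0497). The 1 h call of *Ppargc1a* was lost without control replicate 2 or 3 (0.764 and 0.759, adjusted p 0.0741 and 0.0786).

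**Figure D4:**
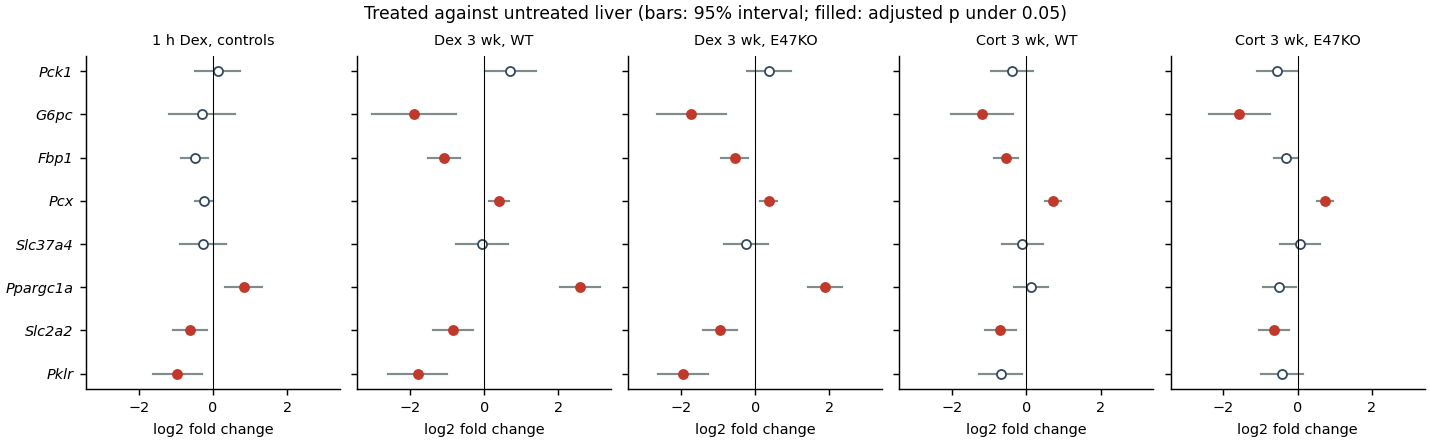
Log2 fold change of treated against untreated liver (horizontal axes) with its 95% interval for the 8 genes in 5 contrasts, with filled red points where the adjusted p is under 0.05. *Ppargc1a* lies at 2.59 and 1.88 after 3 weeks of Dex, and *G6pc*, *Fbp1*, *Slc2a2* and *Pklr* lie below 0 there in both genotypes.

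The other genes of the pathway were followed in 5 lists of 110 genes. Between genotypes 0 of them passed in any of the 6 experiments, by edgeR. At an unadjusted p under 0.05, 0 were higher and 5 lower of 106 in Dex liver (3.08% of all genes in either direction), 3 and 9 of 106 in Cort liver (9.84%), 2 and 4 of 105 in 1 h liver (3.7%), 0 and 2 of 106 in untreated liver (3.63%), 2 and 3 of 105 in WAT (4.29%), and 4 and 2 of 95 in muscle (3.94%). Between treatments calls went in both directions. Of 109 genes, 20 were higher and 24 lower after Dex in WT, against 15.6% and 16.3% of all genes, and 25 and 27 in E47KO, against 19.4% and 18.4%. After Cort, 16 were higher and 22 lower in WT (17% and 16.1% of all genes) and 24 and 26 in E47KO (21% and 18%), and after 1 h of Dex 8 and 22 (10% and 10.4%).

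The lists differed from treatment to treatment, and the same shares of all genes apply to them. Of 33 regulators of glucose production, 10 were higher and 4 lower after Dex in WT and 13 and 3 in E47KO. After Cort the counts were 3 and 3 in WT and 11 and 5 in E47KO, and after 1 h of Dex 3 and 10. Their median change after Dex was 0.29 in WT and 0.21 in E47KO, against -0.04 and -0.016 over all genes. Of 16 glycogen genes, 2 were higher and 6 lower after Dex in WT, 2 and 8 in E47KO, 2 and 6 after Cort in WT, 3 and 7 in E47KO, and 1 and 3 after 1 h of Dex.

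Largest among these were the insulin-responsive binding protein *Igfbp1* and the hepatokine *Fgf21*. *Igfbp1* measured 1458 to 1733 CPM in Dex-treated WT livers and 3.68 to 62.2 CPM in untreated ones, a rise of 6.11 (SE 0.77), and rose by 4.85 in E47KO and by 4.85 in the 1 h controls. *Fgf21* rose by 5.07 after Dex and 5.05 after Cort in WT and by 3.78 and 3.14 in E47KO. After Cort, *Ppp1r3g*, which targets phosphatase to glycogen, fell by 3.62 in WT and 4.84 in E47KO, and the aldolase *Aldoc* fell by 2.30 and 2.25. *Srebf1*, the lipogenic factor SREBP-1, fell by 3.36 after Dex in E47KO and fell by 3.57 in WT, and the glycogen targeting subunit *Ppp1r3c* rose by 2.59 after 1 h (edgeR adjusted p 0.000932).

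*Slc2a4*, the insulin-responsive transporter of muscle and fat, was at most 2 counts in the Dex-treated WT and 1 h control livers and 0.953 to 3.71 CPM in untreated WT livers.

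Across the 3 tissues of Dex-treated mice the 8 genes split into liver genes and shared genes. *G6pc*, *Fbp1*, *Slc2a2* and *Pklr* were found at most at 0.668, 1.83, 0.742 and 0.978 CPM outside liver. In liver they were at 84.5 CPM or more, or for *Pklr* at 43.4 CPM or more. *Pck1*, *Pcx*, *Slc37a4* and *Ppargc1a* were expressed in at least 1 other tissue.

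The tissue fit tested 18113 genes, of which 75.4% differed between liver and WAT, 76.4% between liver and muscle and 77.3% between WAT and muscle. The median change of all genes was -0.19, -0.11 and 0.25, and the changes below are to be read against these. Of the 8 genes 7 were higher and 0 lower in liver than in WAT, against 33.8% and 41.6% of all genes. Between liver and muscle 7 were higher and 0 lower in liver, against 36% and 40.4%, and between WAT and muscle 3 were higher and 2 lower in WAT, against 43.5% and 33.8%. The fit did not model that 3 mice gave both liver and muscle.

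*Pck1*, which in adipocytes serves glyceroneogenesis, measured 2286 to 3245 CPM in WAT, below all 5 livers at 4241 to 5982 CPM and far above muscle at 8.32 to 159 CPM. Liver exceeded WAT by 1.68 (SE 0.40, edgeR adjusted p 0.00227) and WAT exceeded muscle by 4.66 (SE 0.45, edgeR adjusted p 9.6e-07). *Pcx* measured 805 to 1076 CPM in WAT and 610 to 808 CPM in liver, a liver minus WAT difference of 0.31 on the joint scale of the fit (SE 0.18, edgeR adjusted p 0.131; DESeq2 0.0406), and 71.2 to 111.2 CPM in muscle.

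*Slc37a4* measured 141 to 233 CPM in liver, 57.0 to 93.0 CPM in muscle and 21.4 to 25.2 CPM in WAT. On the joint scale of the fit, liver exceeded muscle by 1.55 (SE 0.16, edgeR adjusted p 1.6e-06). WAT differed from muscle by -2.40 (SE 0.18, edgeR adjusted p 7.7e-08). *Ppargc1a* measured 38.8 to 118.5 CPM in muscle, 36.1 to 57.6 CPM in liver and 3.54 to 5.72 CPM in WAT. Liver and muscle overlapped, with a difference of -0.55 (95% interval -1.13 to 0.03, edgeR adjusted p 0.0754). It passed without WT muscle replicate 2 (-0.85, adjusted p 0.00231), without E47KO muscle replicate 3 (-0.65, 0.0473) and without the filter on low counts (-0.62, 0.0135). Liver exceeded WAT by 4.20 (SE 0.33, edgeR adjusted p 1.7e-07).

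**Figure D5:**
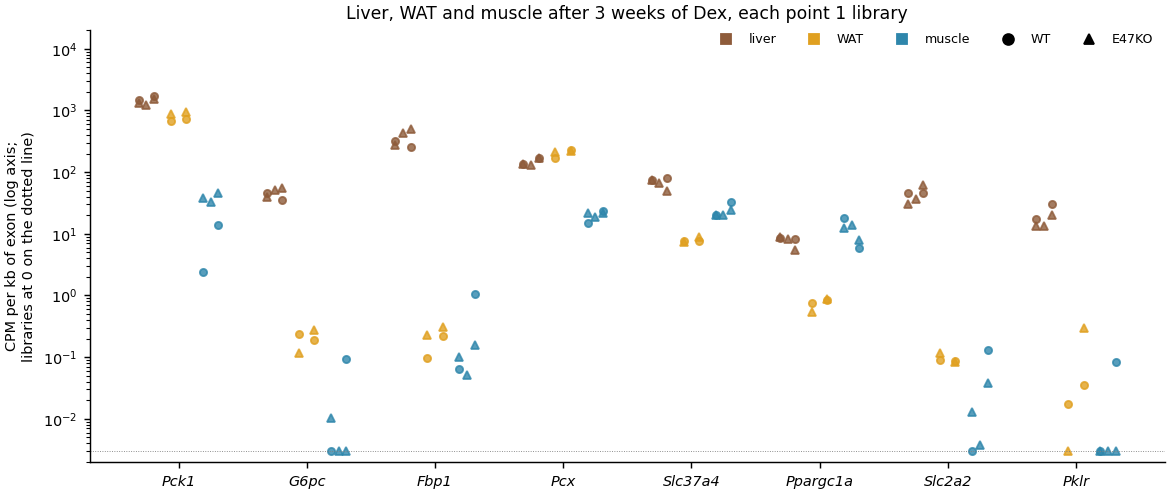
CPM per kb of exon (log axis, libraries at 0 on the dotted line) for the 8 genes in the 14 libraries of Dex-treated mice, with liver in brown, WAT in yellow, muscle in blue, WT as circles and E47KO as triangles. *G6pc*, *Fbp1*, *Slc2a2* and *Pklr* sit above 10 CPM per kb in liver and near or below 1 CPM per kb elsewhere, while *Pcx* in WAT lies at 169 to 226 CPM per kb.

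The counterparts of these genes in other tissues were measured too. The muscle fructose-bisphosphatase *Fbp2* reached 87.4 to 222 CPM in muscle and at most 0.384 CPM in Dex-treated liver. The muscle and fat pyruvate kinase *Pkm* measured 2506 to 3874 CPM in muscle, 414 to 506 CPM in WAT and 11.8 to 20.6 CPM in liver. The widely expressed phosphatase *G6pc3* was at 29.5 to 44.8 CPM in muscle and WAT and 5.50 to 6.58 CPM in liver. The mitochondrial carboxykinase *Pck2* was highest in WAT at 43.6 to 60.5 CPM, and *Slc2a4* measured 427 to 504 CPM in muscle and 129.0 to 191 CPM in WAT.

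Of the 110 pathway genes, 66 were higher and 29 lower in liver than in WAT, against 33.8% and 41.6% of all genes. Between liver and muscle 52 were higher and 44 lower in liver (36% and 40.4%), and between WAT and muscle 37 were higher and 58 lower in WAT (43.5% and 33.8%). Among them the largest tissue differences were those of *Foxa1* and *Nr0b2*, found at most at 1 count in WAT and at 14.3 CPM or more in liver, of *Igfbp1* (11.78 higher in liver than in WAT), and of *Hnf4a*, at 721 CPM or more in liver and at most 2.35 CPM in muscle. *Pygm*, *Pgam2* and *Pfkm*, muscle forms of glycogen phosphorylase, phosphoglycerate mutase and phosphofructokinase, differed by -11.78, -11.04 and -8.83 between WAT and muscle.

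Loss of E47 was also compared in WAT and muscle after Dex. In WAT 0% of 16289 genes passed in edgeR, 7 of the 8 genes could be tested and 0 of them passed in edgeR or DESeq2 (0 with an unadjusted p under 0.05, against 4.29% of all genes). *Pck1* measured 3020 and 3245 CPM in E47KO and 2286 and 2538 CPM in WT, a change of 0.37 (SE 0.17, edgeR adjusted p 0.978). The groups did not overlap for *Pck1* and for *Fbp1*, as for 33% of all genes in this design of 2 against 2, and *Fbp1* lay at 0.166 to 0.525 CPM.

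In muscle 0.0134% of 14962 genes passed, and by edgeR and DESeq2 0 of the 5 genes with enough counts, with 1 at an unadjusted p under 0.05, against 3.94% of all genes. *Pck1* measured 130.4, 114.2 and 159.1 CPM in E47KO and 8.32 and 48.2 CPM in WT muscle, and the groups did not overlap, as for 16.8% of all genes. The change was 2.25 (SE 0.67, 95% interval 0.64 to 3.87, unadjusted p 0.0134, edgeR adjusted p 0.9996). Leaving out WT replicate 1 gave 1.49, whereas leaving out WT replicate 2 gave 4.00, which passed (adjusted p 0.0345).

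All 10 adipocyte markers were detected in every muscle library, and their sum, like *Pck1*, was higher in each E47KO library than in WT. It was 1787, 1223 and 1791 CPM in E47KO and 943.6 and 899.6 CPM in WT muscle. Within WT it did not follow *Pck1*, being lower in replicate 2, where *Pck1* was higher (48.2 against 8.32 CPM). *Adipoq*, 1 of the 10 and made by adipocytes, measured 47.8, 57.8 and 65.7 CPM in E47KO against 5.05 and 19.5 CPM in WT. Within WT, *Adipoq* was higher in replicate 2, where the sum of all 10 was lower, so it does not stand for the list. In WAT the same sum was 52630 to 59230 CPM. The part of fat RNA in the muscle level of *Pck1* was not tested. The genotype effect on *Pck1* was 2.45 lower in liver than in muscle (difference -2.45, SE 0.75, unadjusted p 0.00681), with an edgeR adjusted p of 1 where 0% of 18113 genes passed and 4.6% had an unadjusted p under 0.05, and it passed when WT muscle replicate 2 was left out (-4.26, adjusted p 0.0102). In that contrast of liver with muscle, 3 of the 8 genes had an unadjusted edgeR p under 0.05. The others were *Fbp1* (2.91, SE 1.01, unadjusted edgeR p 0.0143) and *G6pc*, which reached at most 1 count in E47KO muscle. The effect in liver minus that in WAT was -0.62 for *Pck1* (95% interval -2.30 to 1.07, edgeR adjusted p 0.9999), in a contrast where 3.27% of all genes had an unadjusted p under 0.05.

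The counts of liver genes in muscle stood mostly in 1 library. WT muscle replicate 2 held 74 counts of *Fbp1* (1.83 CPM), 30 of *Slc2a2*, 11 of *Pklr* and 9 of *G6pc*, against at most 12, 10, 0 and 1 counts in any other muscle library. *Alb*, the albumin gene, measured 129.2 CPM in that library and 0.597 to 7.09 CPM in the others, and the summed hepatocyte markers 285.5 CPM against 9.88 to 133.4 CPM. In the other muscle libraries *Fgg* or *Fgb* was at 0 in 3 of 4. The library at 133.4 CPM, E47KO replicate 1, held *Alb* at 0.597 CPM and *Fgb* and *Fgg* at 0, so its sum came from other genes of the list. The change of *Fbp1* in muscle (-2.43, SE 1.03) was 0.66 without this library. The part of hepatocyte RNA in these counts was not tested.

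Finally, the genes were compared by how they varied among mice of the same group, as deviations of log2 CPM from the group mean over 30 livers. Such correlations share libraries and sequencing depth and are a description. The deviations were not taken by range of animal numbers, so the split of the Cort livers in *Pck1* and *Slc37a4* is part of them. Its share in the correlations was not tested. The highest pair was *Pck1* with *Slc37a4* (r = 0.742), then *Pck1* with *G6pc* (0.546), *Slc2a2* with *Pklr* (0.537) and *Pcx* with *Pklr* (0.507). *Ppargc1a* did not exceed 0.296 with any of the others and was -0.318 with *G6pc*. Among 7465 genes with a mean of at least 10 CPM, *Slc37a4* was most like *Per1* (0.906), then *Mast3* (0.885) and *Smarcd2* (0.876). *Per1* is a clock gene that the study also names as a known GR target. *Pck1* was most like *Hmox2* (0.846), *Med8* and *AU022252* (0.805 each), *G6pc* like *Nop16* (0.730), *Glud1* and *Tmed10*, *Fbp1* like *Habp4* (0.742), *Acat3* and *9130409I23Rik*, *Pcx* like *Actr1b* (0.800), *Mocos* and *Tmed1*, *Ppargc1a* like the arginine transporter *Slc7a2* (0.803), *Foxp1* and *Gm5424*, and *Slc2a2* like *Cat* (0.773), *Dhdh* and *Slc10a1*. *Pklr* was most like *Hcn3* (0.828), with which it shares exon bases, then *Tkfc* (0.809) and *Pygl* (0.774).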

How the data were processed

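RNA-Seq of poly(A) RNA was read in 39 libraries. The authors deposited raw counts per gene, made per the labels and methods with STAR 2.4.2a on mm10 (HTSeq and DESeq2 are also named in the submitters' processing notes). The unstranded column was used throughout, since the 3-week Dex files hold only that one. Rows naming no gene (20.8 to 36.8% of counts) were left out. The authors' 6 tables of comparisons (fold changes, p-values and normalised values) were not used. Libraries held 15.5 M to 54.6 M counts.

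Genotypes were compared in each experiment with edgeR 4.0.16 (R 4.3.3; filterByExpr, TMM, quasi-likelihood F test, Benjamini-Hochberg, threshold 0.05). Treatments and tissues were compared in joint fits of 30 livers and of 14 libraries, with a mean per group. Levels are TMM-scaled CPM by experiment, and fold changes are log2. Up to 3 counts in a library were treated as the floor. The scripts were tested on simulated data. Replicates are separate mice by the labels, and 3 mice gave liver and muscle. RNA of long-term and acute experiments was extracted with different kits, and 3-week Dex libraries were unstranded. The Cort libraries are labelled stranded, but their strand column held 50.05 to 50.1% of strand-assigned counts (96.93 to 97.72% in 1 h and untreated livers), so it carries no strand information there.

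The alternatives were RLE scaling, no filter, DESeq2 1.42.0, the strand column, a replicate block, the range of animal numbers, leaving out each replicate and, added after seeing the data, leaving out 3 Cort livers. Named genes were the 8 genes, *Tcf3*, 6 tissue counterparts, the 3 largest changes of the pathway lists in each contrast, and the 3 genes most correlated with each of the 8. Genes at the floor are given by level only. *Srebf1* in WT, *Per1* as a clock gene and GR target, and the marker genes were described after their values were seen. The members and lists were chosen with earlier results of these data known.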

Additional observations from a re-analysis of the deposited data

Results flagged for a closer look

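The 8 genes were each tested for a liver far from the rest in 4 groups of 4 to 6 livers. Of these 32 tests 2 stood out, and chance alone flags about 1 in 20. *Pck1* measured 1346 CPM in Cort-treated WT replicate 1, against 2968 to 3460 CPM in the other 3 WT livers. It is the only Cort-treated WT liver of the lower range of animal numbers. *Slc37a4* measured 332.9 CPM in untreated E47KO replicate 1, against 175.8 to 214.4 CPM in the other 5. Untreated WT replicate 1, of the same range of animal numbers, was also the highest of its group at 301.9 CPM.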

How the results depend on the processing

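Between genotypes, none of the 8 genes passed under any alternative except *Pck1* in muscle (0 to 1 genes when 1 library was left out). Counts over all genes moved more. Without the filter they were 62 (Dex liver), 13 (Cort), 1 (1 h), 8 (untreated), 6 (WAT) and 37 (muscle), and with DESeq2 they were 21, 263, 6, 21, 38 and 90, against 1, 4, 0, 4, 0 and 2. Leaving out 1 library gave 0 to 7, 1 to 6, 0 to 1, 3 to 4, 0 to 333 and 1 to 8. The range of animal numbers as covariate gave 0 in Dex liver, 67 in Cort liver and 4 in muscle.

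Same-numbered samples did not deviate together throughout (correlations of -0.485 to 0.748), and those with negative values came from different ranges of animal numbers or lay close to 0, so the numbers were not taken as pairs. The replicate block gave 0 genes in Dex liver, 29 in Cort liver, 2 in untreated liver and 1 in muscle, and changed no call of the 8 genes. Mice of the same range of animal numbers deviated together in Cort liver (0.221 to 0.716), WAT (0.249) and muscle (0.133 to 0.345), but not throughout in Dex liver (-0.0586 to 0.485) or untreated liver (-0.0272 to 0.748). In a group of 2 libraries the deviations mirror each other, so same-number and same-range values can be 1 value with its sign turned. This was so in WAT (-0.249 and 0.249), Dex liver (-0.485 and 0.485) and muscle (-0.133 and 0.133). In WAT, whose groups share 1 replicate number only, the range as covariate gave 0 genes and a change of 0.37 for *Pck1*. The range changed no call of the 8 genes. Directions short of the threshold turned for *G6pc* in untreated liver (-0.39 with the block, -0.22 with the range), *Ppargc1a* in muscle (0.36 with the block), *Pck1* in Cort liver (0.21 with the range) and *Slc37a4* in Cort against untreated WT (0.14 without the 3 lower-range livers).

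Leaving out 1 library turned other directions short of the threshold. In Dex liver the ranges were -0.44 to 0.11 for *Slc2a2* and -0.25 to 0.12 for *Pcx*. In Cort liver they were -0.43 to 0.17 for *Pck1*, -0.10 to 0.015 for *Pcx*, -0.24 to 0.29 for *Slc37a4*, -0.048 to 0.18 for *Slc2a2* and -0.33 to 0.044 for *Ppargc1a*. In 1 h liver they were -0.14 to 0.0705 for *Slc37a4* and -0.0053 to 0.12 for *Pcx*. In untreated liver they were -0.15 to 0.027 for *Fbp1*, -0.26 to 0.0099 for *Slc37a4*, -0.083 to 0.17 for *Slc2a2* and -0.12 to 0.32 for *G6pc*. In WAT they were -0.89 to 0.34 for *G6pc*, -0.058 to 0.35 for *Pcx*, -0.59 to 0.11 for *Ppargc1a*, -0.11 to 0.38 for *Slc2a2* and -0.047 to 0.20 for *Slc37a4*. In muscle they were -0.18 to 0.45 for *Pcx*, -0.66 to 0.97 for *Ppargc1a*, -3.36 to 0.66 for *Fbp1* and -0.59 to 0.074 for *Slc37a4*.

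Between treatments, leaving out 1 library moved the number of the 8 genes past the threshold to 3 to 6 in Dex-treated WT, 2 to 5 in Cort-treated E47KO and 0 to 4 in the 1 h controls, and without the 3 lower-range Cort livers it was 1 in Cort-treated E47KO. *Slc37a4* ranged from -0.16 to 0.042 after Dex and -0.27 to 0.14 after Cort in WT and from -0.24 to 0.29 after Cort in E47KO, and *Pck1* from -0.045 to 0.23 at 1 h. Between tissues, *Fbp1* ranged from -1.49 to 0.55 for WAT against muscle. The genotype effect in liver minus that in muscle ranged from -0.22 to 3.86 for *Fbp1*, with 0 to 1 genes past the threshold, and liver minus WAT from -4.04 to 3.43 for *Pklr*. The causes were not tested.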
